A study of Homo sapiens with 4 samples.

Results

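The 2 human pancreatic cancer lines MIA PaCa-2 and PANC-1 were compared with each other after 24 h of cannabichromene (CBC), a non-psychoactive cannabinoid of the cannabis plant, and that line difference was set beside the one between their PBS controls. MIA PaCa-2 cells had received 35 μM CBC and PANC-1 cells 30 μM, so the dose and the line cannot be told apart, and the methods speak of a vehicle control where the sample labels say PBS. All 4 libraries came from wild-type cells of established tumour lines, in the sense that no engineered change was named for them. With 1 messenger RNA library per line and treatment, no difference within a treatment has a replicate check or a p-value. A gene entered the comparison of the CBC libraries when it reached 1 CPM, a count scaled by library size, in at least 1 of these 2 libraries, which 15043 of 58233 genes did. Line differences are given as log2 of MIA PaCa-2 over PANC-1, positive when MIA PaCa-2 was higher, from counts on effective library sizes, which the TMM method (trimmed mean of M-values) set across the 4 libraries together.

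MIA PaCa-2 and PANC-1 both come from ductal adenocarcinoma of the pancreas, and cell lines of this tumour differ in how much of the epithelial program they keep. Cell junction proteins, keratins, integrins and the matrix a cell lays down mark that state. Stress pathways such as the unfolded protein response, NF-kB signalling and the interferon response are switched on by treatment and use inducible target genes that can be read in RNA.

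The libraries held 21742775 to 27903667 counts on genes, and mitochondrially encoded genes took 5.81% and 3.86% of them in MIA PaCa-2 (PBS, CBC) and 4.63% and 2.42% in PANC-1. Both lines had abundant KRT8, KRT18 and KRT19, keratins of ductal epithelium, while CFTR, another marker of pancreatic ducts, had no count in any library. EPCAM and CDH1, which encode epithelial adhesion proteins, had 0 or 1 count in either MIA PaCa-2 library and 32 to 264 counts in the PANC-1 libraries. PTPRC, CD3E and MS4A1 of leukocytes, PECAM1 and CLDN5 of endothelium and DCN, LUM and FAP of fibroblasts were at 0 in all 4. Of the 7 endothelial markers 2 reached 1 CPM, both in MIA PaCa-2, EMCN with 414 and 75 counts (PBS, CBC) and CDH5 with 49 and 7, and their list summed to 20.8 and 3.40 CPM there and to 0.132 and 0.293 CPM in PANC-1. In bulk RNA, fewer cells of a type and less RNA per cell cannot be told apart.

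Under CBC the lines differed more than 2-fold in 6852 genes, 45.5% of those tested. Of these, 2991 were higher in MIA PaCa-2 (19.9%) and 3861 were higher in PANC-1 (25.7%). Under PBS 6207 of 14805 genes differed, or 41.9%, with 2659 higher in MIA PaCa-2 (18%) and 3548 higher in PANC-1 (24%). Most line differences were present with either treatment, since 4653 genes were called in the same direction under both, 67.9% of the calls under CBC and 75.0% of those under PBS. The exact 95% interval of the count ratio, which covers counting error only, lay wholly past 2-fold for 5628 of the 6852 calls. edgeR's quasi-likelihood test of the line, with treatment as a second term over the 4 libraries, called 7652 of 16381 genes at an adjusted p under 0.05 (46.7%), 3548 higher in MIA PaCa-2 and 4104 higher in PANC-1. It found 5702 of the 6852 genes in the same direction. The test included the 2 CBC libraries behind those calls, so this overlap is partly built in. That test asks for a line difference averaged over both treatments and has 1 residual degree of freedom among the libraries. A called gene thus need not differ past 2-fold under each treatment. CDC6, with line differences of 0.23 under PBS and 2.35 under CBC, had an adjusted p of 0.0472 in the quasi-likelihood test.

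Single genes converged and diverged in similar numbers, and most measures over all genes put the lines slightly further apart under CBC. Among the 15590 genes with 1 CPM in at least 1 of the 4 libraries, the gap between the lines (the absolute log2 difference) narrowed by at least 1 under CBC in 1204 genes (7.72%) and widened by at least 1 in 1248 (8.01%). Another 43 genes crossed over, with a difference past 2-fold in opposite directions (0.276%). The median gap was 0.82 under PBS and 0.91 under CBC, and the gap was narrower under CBC in 7257 of the 15590 genes. The Spearman correlation of the lines across genes was 0.816 under PBS and 0.805 under CBC, whereas the SD of the line difference was 2.28 and 2.26. Across these genes the line differences under PBS and CBC, which come from separate libraries, had a Pearson r of 0.917 and a Spearman rho of 0.870, given as a description. The middle of the distribution thus lay slightly further apart under CBC while its spread was about the same. With 1 CPM required in every library, 358 gaps narrowed and 488 widened, and the surplus of 44 widened over narrowed gaps turned to -67 with a prior count of 0.5 in place of 2.

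**Figure D1:**
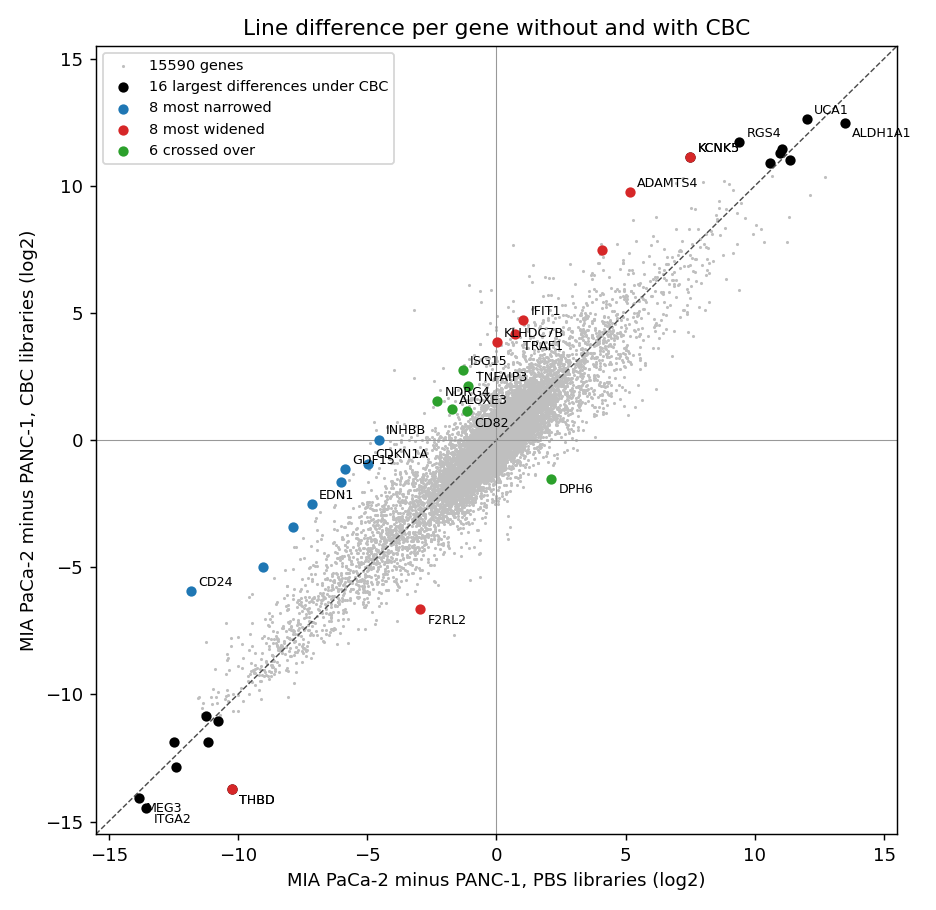
Each point is 1 of 15590 genes, with the log2 difference MIA PaCa-2 minus PANC-1 in the PBS libraries on the x axis and in the CBC libraries on the y axis. Points on the dashed diagonal had the same line difference with either treatment, and the coloured points are the genes with the most narrowed (blue), most widened (red) and crossed-over (green) gaps, such as CD24, from -11.80 to -5.95, and ISG15, from -1.31 to 2.76.

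The direction of the change in the gap went with its size. Where the mean of both gaps was 1 to 2 on the log2 scale, 9.04% of genes narrowed and 11.7% widened. Where it was 4 to 8, 24.3% narrowed and 16.4% widened, and above 8 the shares were 20% and 8%. Of the genes with a mean gap of 4 to 8, 72.8% had a library at 3 counts or fewer, and above 8 it was 95.5%, so their gaps depend on very low counts in the lower line. The part of these low counts in the narrowing was not tested. The larger of the 2 lines' changes was in MIA PaCa-2 for 8709 of all 15590 genes (55.9%), for 726 of the 1204 narrowed (60.3%), 754 of the 1248 widened (60.4%) and 33 of the 43 crossed-over genes (76.7%).

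**Figure D2:**
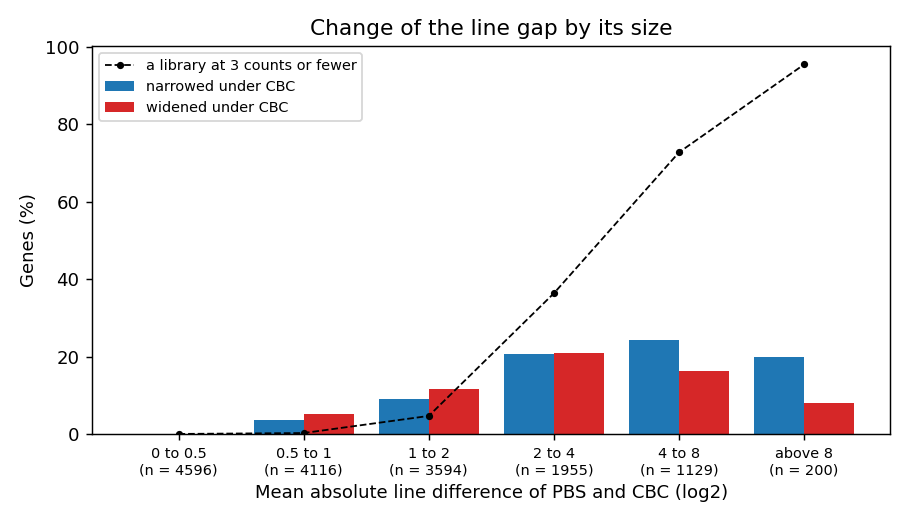
Genes are grouped on the x axis by the mean of their absolute log2 line differences under PBS and CBC, with the number of genes below each group. Bars give the percent of genes whose gap narrowed (blue) or widened (red) by at least 1, and the dashed line gives the percent with a library at 3 counts or fewer, which rises to 95.5% in the group above 8.

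Of the genes that averaged 10 CPM or more, those with the largest line differences under CBC were read almost wholly in 1 line, with either treatment. In MIA PaCa-2 the highest was UCA1, a long non-coding RNA of urothelial cancer (chromosome 19, 15828206 to 15836328 of GRCh38), with 340 CPM under PBS and 514 CPM under CBC and no count in either PANC-1 library. Its level under CBC was at least 4685-fold higher in MIA PaCa-2, taking the 3 counts that a count of 0 allows as the limit. ALDH1A1, a retinaldehyde dehydrogenase used as a stem cell marker, had 938 and 468 CPM against no count and was at least 4267-fold higher under CBC. TP63, the p63 transcription factor of basal epithelia, had 173 and 227 CPM against no count. These genes had the same on-off pattern without CBC. AKR1C1, an aldo-keto reductase and NRF2 target, had 3723 and 14182 counts in MIA PaCa-2 and 0 and 4 counts in PANC-1, although reads of its near-identical relative AKR1C2 could have been split between the genes. RGS4, an inhibitor of G protein signalling, had 17676 and 12870 counts in MIA PaCa-2 and 25 and 2 counts in PANC-1.

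In PANC-1 the largest difference was in ITGA2, the integrin alpha-2 chain that binds collagen (chromosome 5, 52989340 to 53094779). It had 1515 CPM under PBS and 1875 CPM under CBC, against 1 and 0 counts in MIA PaCa-2, and was at least 15461-fold higher in PANC-1 under CBC. MEG3, an imprinted long non-coding RNA (chromosome 14, 100779410 to 100861031), had 1204 and 1413 CPM and no count in MIA PaCa-2. HMGA2, a chromatin protein of embryonic and tumour cells (chromosome 12, 65824460 to 65966291), had 445 and 619 CPM and also no count. LDHB, the lactate dehydrogenase subunit that favours pyruvate formation, had 475 and 309 CPM against no count, so no LDHB transcript was detectable in MIA PaCa-2. STC2, the stanniocalcin-2 hormone and an ATF4 target, had 293 and 459 CPM in PANC-1 and 1 count in each MIA PaCa-2 library. THBD, the thrombin receptor thrombomodulin (chromosome 20, 23045633 to 23049672), had 99.2 CPM in PANC-1 under PBS and 1123 CPM under CBC, and no count in MIA PaCa-2. It was at least 735-fold higher in PANC-1 under PBS and at least 9260-fold higher under CBC.

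Genes of this kind were more numerous in PANC-1. With at least 10 CPM in 1 line and at most 3 counts in the other, 256 genes were read only in PANC-1 and 89 only in MIA PaCa-2 under CBC. The same 2 numbers were 300 and 89 under PBS. With both treatments the definition was met by 217 genes in PANC-1 and 58 in MIA PaCa-2.

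Adhesion and matrix genes gave some of the most uneven lists. Of 13 tested integrins, the receptors by which cells hold on to matrix, 12 were higher in PANC-1 under CBC and 1, ITGB4, was higher in MIA PaCa-2, against background shares of 25.7% and 19.9% of all genes. Under PBS it was 11 and 1. ITGA6, the alpha-6 chain of laminin receptors, had 74.6 and 28.9 CPM in MIA PaCa-2 and 514 and 502 CPM in PANC-1, so its line difference went from -2.78 to -4.11. ITGB5, a beta chain of vitronectin receptors, had 51.6 and 44.1 CPM against 427 and 328 CPM, and the quasi-likelihood test in edgeR gave it a log2 difference of -2.91 ± 0.20 (SE) over both treatments with an adjusted p of 3.39e-05. The laminins and other matrix glycoproteins followed the same direction, with 10 of 13 higher in PANC-1 and 0 higher in MIA PaCa-2 under CBC, and 11 and 0 under PBS. NID1, the basement membrane linker nidogen-1, was read 0 and 9 times in MIA PaCa-2 and 4508 and 3021 times in PANC-1.

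The collagens were divided between the lines. Under CBC 8 of 15 tested collagen genes were higher in MIA PaCa-2 and 5 in PANC-1. The chains of type I collagen lay on opposite sides: COL1A2, the alpha-2 chain (chromosome 7, 94394895 to 94431227), had 8174 and 2348 counts in MIA PaCa-2 and 0 and 1 counts in PANC-1. COL1A1, the alpha-1 chain (chromosome 17, 50184101 to 50201632), had 11 and 13 counts in MIA PaCa-2 and 3037 and 1268 counts in PANC-1. Neither line thus had both chains at a substantial level. Both are fibroblast markers, of which 6 of 10 reached 1 CPM, with a sum of 673 and 160 CPM in MIA PaCa-2 and 138 and 49.5 CPM in PANC-1, and DCN, LUM and FAP at 0. COL5A2, a chain of type V collagen, had 634 and 588 CPM in MIA PaCa-2 and 1.63 and 1.43 CPM in PANC-1, a difference of 8.54 under PBS and 8.61 under CBC. COL6A3, a chain of type VI collagen, had 81.4 and 129 CPM against 2.64 and 0.878 CPM, and its gap widened from 4.90 to 7.07. Among proteases, MMP2, the gelatinase that cuts collagen IV, had no count in MIA PaCa-2 and 64.6 and 57.9 CPM in PANC-1, whereas MMP1, the interstitial collagenase, was higher in MIA PaCa-2 with 196 and 344 CPM against 5.76 and 37 CPM.

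**Figure D3:**
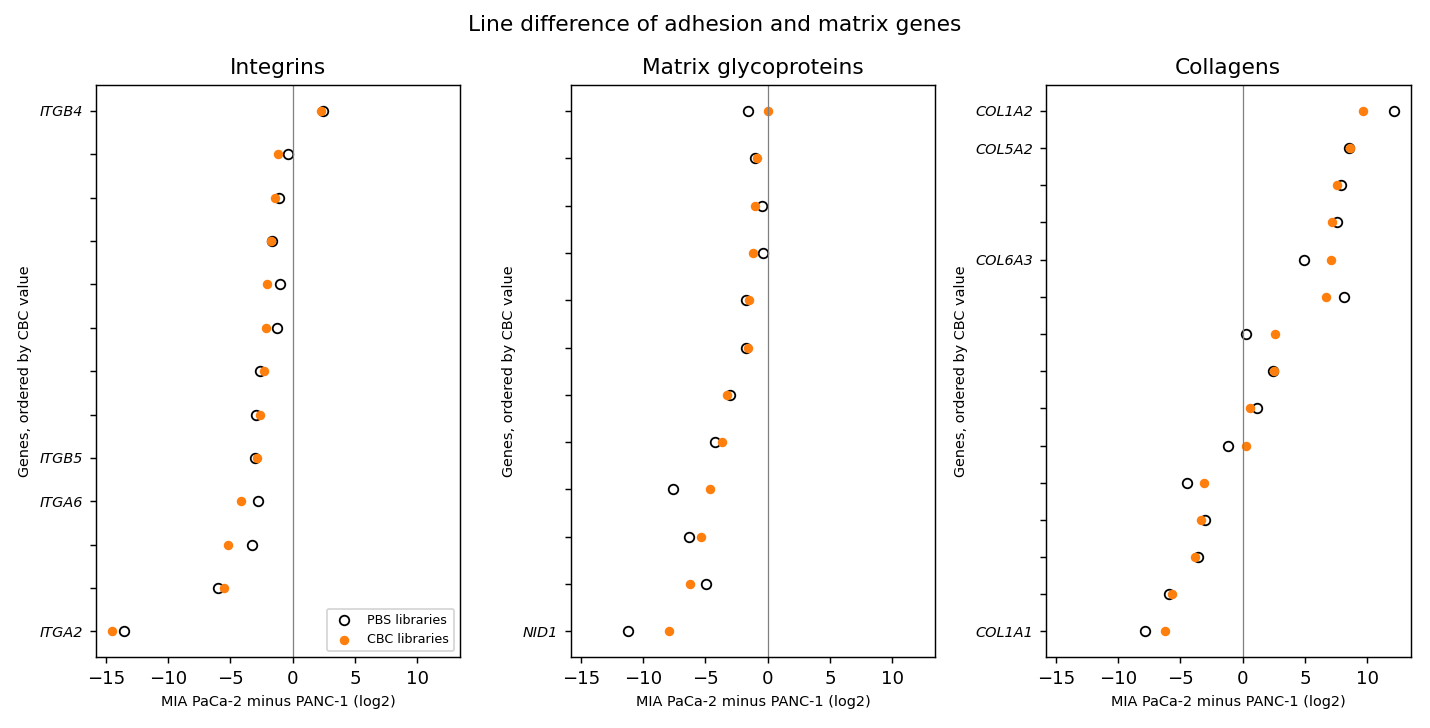
Log2 line differences of the 13 tested integrins, 12 of the 13 matrix glycoproteins (laminins included) and the 15 collagens, each row 1 gene ordered by its CBC value and the genes described in the text labelled, with PBS libraries as open circles and CBC libraries as filled circles. Values left of 0 were higher in PANC-1, as for 12 of the 13 integrins under CBC, and COL1A1 and COL1A2 lie at opposite ends of the collagens.

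Epithelial and mesenchymal genes did not divide the lines cleanly. Of 28 tested epithelial genes 15 were higher in PANC-1 and 8 in MIA PaCa-2 under CBC. Of 20 mesenchymal genes 10 were also higher in PANC-1 and 3 in MIA PaCa-2. The shares over all genes were 25.7% in PANC-1 and 19.9% in MIA PaCa-2. CLDN7, a tight junction claudin, had no count in MIA PaCa-2 and 23.3 and 43.1 CPM in PANC-1. KRT8, a keratin with many processed copies that could have drawn reads, was higher in MIA PaCa-2, with 1801 and 1251 CPM against 604 and 276 CPM. CCN2, a matricellular YAP target, had 5 and 21 counts in MIA PaCa-2 and 5336 and 1837 counts in PANC-1, so its gap narrowed from 9.58 to 6.18. The position genes of the HOX family were mostly higher in PANC-1, 16 of 22 under CBC and 13 of 23 under PBS. HOXC10 and HOXC9 had no count in MIA PaCa-2 and 34.1 to 85.2 CPM in PANC-1. HOXB5 had 63.5 and 61.1 CPM in the PBS libraries of MIA PaCa-2 and PANC-1 and 11.8 and 67.9 CPM in the CBC libraries, which took its line difference from 0.06 to -2.51. FOXA2, an endoderm transcription factor, was read only in PANC-1 (54.3 and 45.5 CPM), and the motor neuron and islet factor MNX1 was higher in MIA PaCa-2 (27.3 and 20.7 CPM against 1.06 and 0.805 CPM).

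Of the lists of inducible genes, the 7 given first here were shifted the other way, toward MIA PaCa-2. Over all genes the line difference was shifted toward MIA PaCa-2 under CBC in 49.7%, counting shifts of any size. Of 19 NF-kB subunits and feedback targets all 19 were shifted that way, as were 25 of 27 immediate early genes, 14 of 16 chemokines and cytokines, 22 of 24 ER chaperones and unfolded protein response genes, 21 of 23 heat shock chaperones, 22 of 26 interferon-stimulated genes and 17 of 19 genes of MHC class I and peptide loading. The counting interval of the shift left out 0 toward MIA PaCa-2 in 16 of the NF-kB, 22 of the immediate early, 5 of the chemokine, 22 of the ER, 21 of the heat shock, 15 of the interferon and 11 of the MHC genes. Some genes stand in more than 1 of these lists, for example CXCL8 and CXCL2 as chemokines and as NF-kB targets. Median line differences of these lists lay between -0.59 and 0.57 under PBS and between 0.33 and 2.80 under CBC, beside -0.10 for all genes tested under either treatment. Scaled to library totals, the medians of the NF-kB and ER lists under PBS turned from -0.08 and -0.06 to 0.05 and 0.07, and those under CBC stayed positive for all 7 lists. Other lists also shifted toward MIA PaCa-2, with 10 of 12 metallothioneins and zinc transporters, 18 of 24 growth factors and 22 of 30 p53 targets and cell-cycle inhibitors. Their intervals left out 0 toward MIA PaCa-2 in 7, 13 and 18 genes, and toward PANC-1 in 2, 2 and 7. The shift was not particular to inducible genes, since 11 of 13 mitochondrially encoded and 36 of 43 DNA replication genes also shifted toward MIA PaCa-2. Nor did every inducible list share it. In the NRF2 list 19 of 33 genes shifted that way, with intervals that left out 0 in 11 toward MIA PaCa-2 and 13 toward PANC-1.

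**Figure D4:**
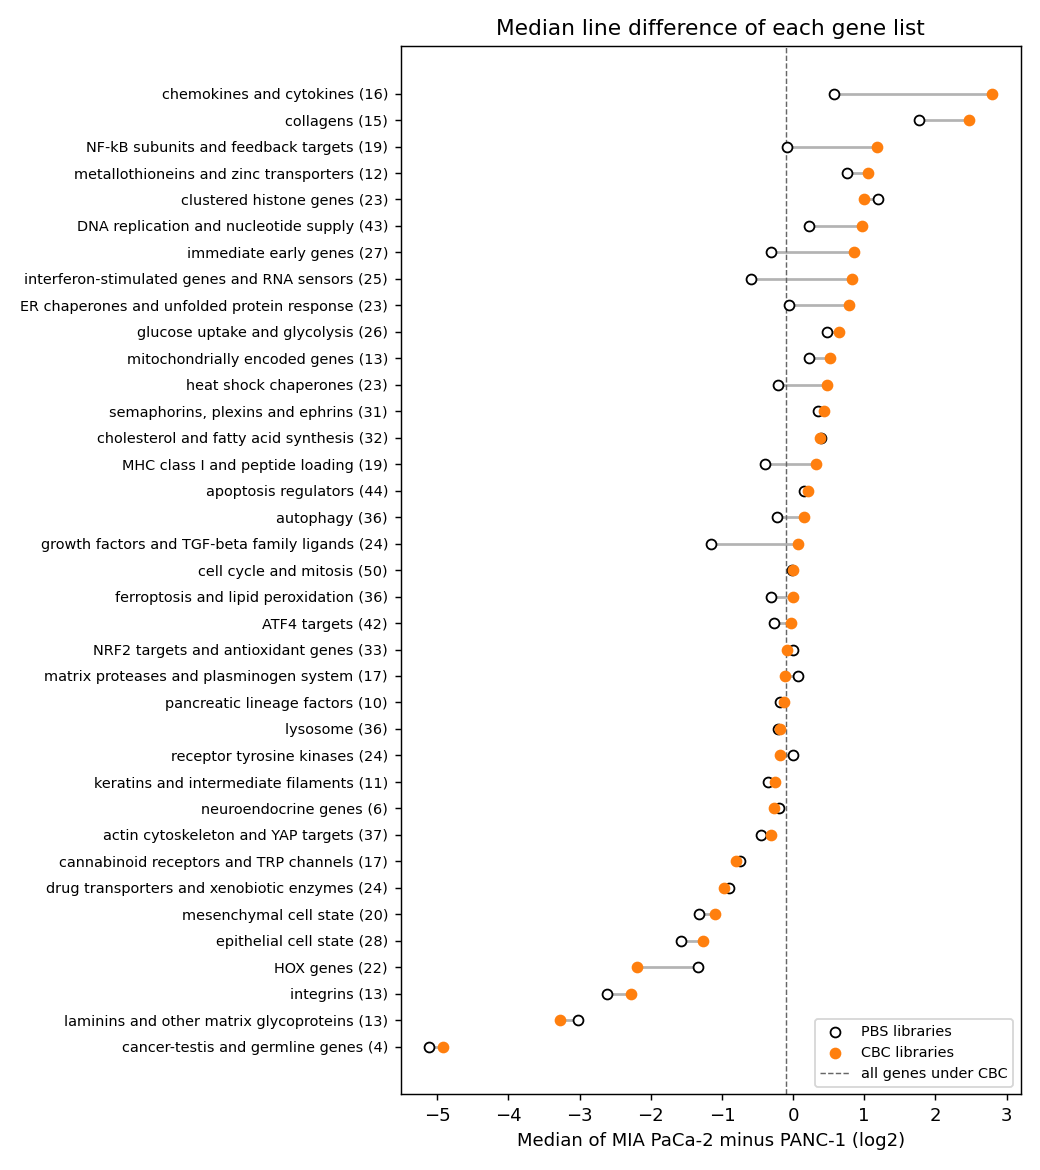
Median log2 difference MIA PaCa-2 minus PANC-1 of gene lists in the PBS libraries (open circles) and the CBC libraries (filled circles), with the number of genes tested under CBC in parentheses and the median of all genes under CBC as the dashed line. The median of the interferon-stimulated genes went from -0.59 to 0.82 and the chemokines from 0.57 to 2.80, while the integrins and laminins stayed below -2. The marker lists and the list of p53 targets are not drawn.

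Interferon-stimulated genes encode antiviral effectors and sensors of foreign RNA, and their promoters carry an interferon-stimulated response element bound by STAT and IRF factors. The stretches before the RefSeq start sites of 3 members are shown as examples of the element. These are the stretches of IFIT1 (chr10:89392453-89392545), IFIT3 (chr10:89327827-89327996) and ISG15 (chr1:1013327-1013496), all on the plus strand of GRCh38.p14. Each begins 170 bases before the start, and the IFIT1 stretch ends 78 bases before it, where the GENCODE gene begins. Capitals mark matches to the element's core GAAANNGAA on either strand, which overlap in ISG15.
IFIT1: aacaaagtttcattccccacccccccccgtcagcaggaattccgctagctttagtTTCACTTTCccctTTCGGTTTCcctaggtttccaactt
IFIT3: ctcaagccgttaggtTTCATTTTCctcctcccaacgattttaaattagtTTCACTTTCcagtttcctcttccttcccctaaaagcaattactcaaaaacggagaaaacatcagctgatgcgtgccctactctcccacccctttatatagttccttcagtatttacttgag
ISG15: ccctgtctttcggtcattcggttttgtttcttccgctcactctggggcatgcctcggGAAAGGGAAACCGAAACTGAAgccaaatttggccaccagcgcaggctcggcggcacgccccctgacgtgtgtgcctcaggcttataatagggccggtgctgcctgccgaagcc
The core was found in 15 of the 23 list members with a RefSeq promoter (65.2%) and in 8.29% of 27305 promoters of the same 300 bases, 250 before to 50 after the start. A match is a description of the sequence only, and its part in the line difference was not tested.

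Under CBC 12 of 25 tested interferon-stimulated genes were higher in MIA PaCa-2 and 4 in PANC-1, where under PBS 7 were higher in MIA PaCa-2 and 10 in PANC-1. IFIT1, a protein that binds foreign RNA ends, had 22.6 CPM in MIA PaCa-2 and 11 CPM in PANC-1 under PBS, and 111 and 4.17 CPM under CBC. The CBC library of MIA PaCa-2 was the high one and that of PANC-1 the low one, and the line difference went from 1.03 to 4.71 (counting interval 4.46 to 5.02). IFIT3, its partner protein, had 13.7 and 149 CPM in MIA PaCa-2 (PBS, CBC) and 0.924 and 2.34 CPM in PANC-1. Whether reads of the IFIT genes were split between related genes of the family was not checked. OASL, an antiviral relative of the oligoadenylate synthases, had 6.97 and 92.3 CPM in MIA PaCa-2 and 0.264 and 0.988 CPM in PANC-1. Both lines thus had more IFIT3 and OASL under CBC, and MIA PaCa-2 had the higher level with either treatment. ISG15, the ubiquitin-like modifier, crossed over, with 11.8 and 168 CPM in MIA PaCa-2 and 29.4 and 24.8 CPM in PANC-1. IRF7, an interferon regulatory factor, was 1 of the 4 that were higher in PANC-1, with no count in MIA PaCa-2 and 11.7 and 31.5 CPM in PANC-1, at least 260-fold higher in PANC-1 under CBC.

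NF-kB is a family of dimeric transcription factors held in the cytoplasm by inhibitors that are themselves NF-kB targets, and chemokines such as CXCL8 are among its best known targets. The promoter stretches of TNFAIP3 (plus strand, chr6:137867089-137867213) and CXCL2 (minus strand, chr4:74099197-74099365) are given because TNFAIP3 crossed over and CXCL2 stands in both lists. Capitals mark the kB core GGGNNTTTC on either strand.
TNFAIP3: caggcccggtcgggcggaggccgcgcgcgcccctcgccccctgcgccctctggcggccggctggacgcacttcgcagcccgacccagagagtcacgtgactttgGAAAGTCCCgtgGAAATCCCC
CXCL2: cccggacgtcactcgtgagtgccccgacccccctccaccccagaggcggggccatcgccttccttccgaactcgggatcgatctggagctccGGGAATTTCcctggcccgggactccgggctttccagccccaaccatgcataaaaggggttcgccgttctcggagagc
The core was present in 8 of 18 promoters of the NF-kB list (44.4%), in 8 of 20 of the chemokine list (40%) and in 4.73% of all promoters. By the same search, the AP-1 motif TGANTCA was in 1 of 22 promoters of the immediate early list (4.55%) and in 7.76% of all promoters, and the ATF4-bound motif TTGCATCA was in 4 of 37 promoters of the ATF4 list (10.8%) and in 0.923% of all.

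Of 19 tested genes of the NF-kB list, 10 were higher in MIA PaCa-2 and 2 in PANC-1 under CBC, against 5 and 6 under PBS. TRAF1, an adaptor of TNF receptors (chromosome 9, 120902393 to 120929173), had 22.6 CPM in MIA PaCa-2 and 13.5 CPM in PANC-1 under PBS, and 511 and 28.4 CPM under CBC. It was higher in the CBC library of both lines, but by far more in MIA PaCa-2, so the line difference went from 0.74 to 4.17 (4.07 to 4.28). TNFAIP3, the A20 enzyme that ends NF-kB signalling, had 2.7 and 35.4 CPM in MIA PaCa-2 and 5.81 and 8.05 CPM in PANC-1. NFKBIZ, a nuclear inhibitor-like cofactor, had 5.44 and 28.3 CPM in MIA PaCa-2 and 40.6 and 27.9 CPM in PANC-1, so a gap of 2.88 closed to 0.02. ICAM1, an adhesion receptor for leukocytes and an NF-kB target, went against the list with 1 and 8 counts in MIA PaCa-2 and 754 and 1638 counts in PANC-1.

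Of 16 tested chemokines and cytokines 10 were higher in MIA PaCa-2 and 4 in PANC-1 under CBC, against 7 and 6 of 14 under PBS. CXCL8, the neutrophil chemokine interleukin-8, had 72.5 and 285 CPM in MIA PaCa-2 and 1.54 and 3.92 CPM in PANC-1. CXCL5, a chemokine of the same family, and CSF3, the granulocyte growth factor, had no count in PANC-1, and in MIA PaCa-2 they went from 36.6 to 95.5 CPM and from 20.6 to 94.5 CPM. Under CBC they were at least 870-fold and at least 861-fold higher in MIA PaCa-2. All 3 were higher in MIA PaCa-2 with either treatment, while CCL2, a monocyte chemokine, had 0 and 1 counts in MIA PaCa-2 and 518 and 177 counts in PANC-1. Of 11 leukocyte markers 4 reached 1 CPM in a library, and the list summed to 8.95 and 25.7 CPM in MIA PaCa-2 and 2.15 and 2.05 CPM in PANC-1. Most of the sum under CBC in MIA PaCa-2 was ITGAM, an integrin of myeloid cells, with 12 and 491 counts against 4 and 4, whereas CD14 had 123 and 18 counts against 32 and 2, and PTPRC, CD3E and MS4A1 had no count. The part of these transcripts in the chemokine, NF-kB and interferon lists was not tested. Growth factors were split, with 7 of 24 higher in either line under CBC, beside 19.9% (MIA PaCa-2) and 25.7% (PANC-1) of all genes. Under PBS it was 7 and 12 of 22. NRG1, the ligand of ERBB3, was read only in PANC-1 (44.9 and 96.1 CPM), and AREG, a ligand of the EGF receptor, was high in MIA PaCa-2 (60.3 and 217 CPM against 0.88 and 0.988 CPM).

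**Figure D5:**
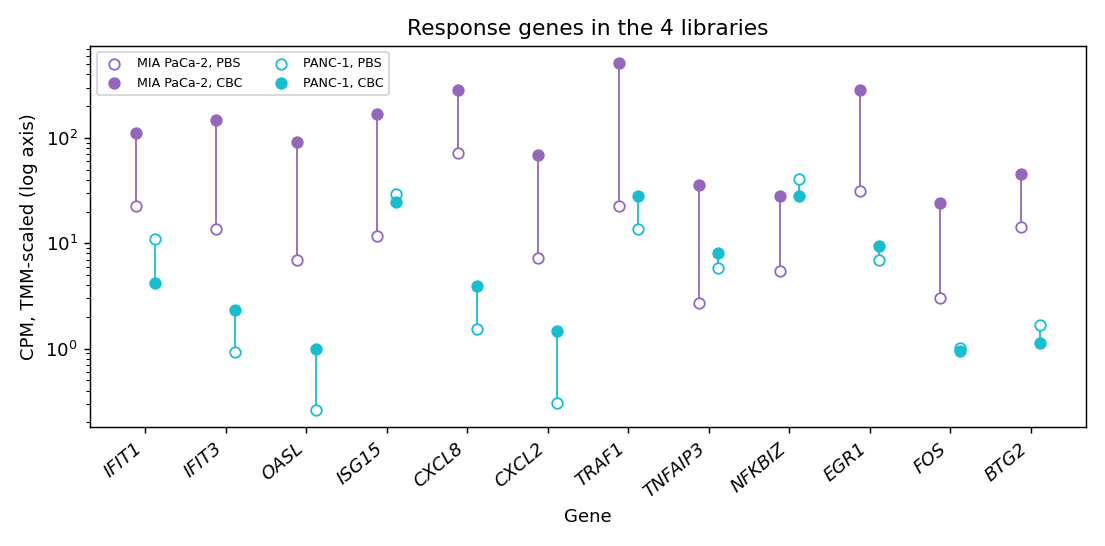
TMM-scaled CPM on a log axis for 12 genes of the interferon, NF-kB, chemokine and immediate early lists, with open circles for PBS, filled circles for CBC and a line joining the libraries of 1 cell line. In MIA PaCa-2 all 12 were higher in the CBC library, and in PANC-1 ISG15, IFIT1, NFKBIZ, FOS and BTG2 were not.

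Immediate early genes are transcription factors and phosphatases switched on within minutes by growth factors and stress. Under CBC 13 of 27 were higher in MIA PaCa-2 and 5 in PANC-1, against 8 and 10 of 26 under PBS. EGR1, a zinc finger factor, had 31.5 and 288 CPM in MIA PaCa-2 and 6.95 and 9.44 CPM in PANC-1, and its line difference went from 2.17 to 4.92 (4.75 to 5.11). FOS, a subunit of AP-1, had 3.01 and 24 CPM in MIA PaCa-2 and 1.01 and 0.951 CPM in PANC-1. BTG2, an antiproliferative factor, had 14.3 and 45.2 CPM against 1.67 and 1.13 CPM. ZFP36, which destabilises inflammatory mRNAs, was higher in PANC-1 with either treatment, but its gap narrowed, with 6.07 and 61.7 CPM in MIA PaCa-2 and 325 and 497 CPM in PANC-1.

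Of 23 ER chaperones and unfolded protein response genes 7 were higher in MIA PaCa-2 and 1 in PANC-1 under CBC, against 2 and 4 of 24 under PBS. In this list 7 gaps widened and none narrowed. Over all genes 19.9% were higher in MIA PaCa-2 and 25.7% in PANC-1 under CBC, and 8.01% of gaps widened and 7.72% narrowed. DNAJB9, an ER co-chaperone, had 10.6 and 105 CPM in MIA PaCa-2 and 16.8 and 22.4 CPM in PANC-1, and its line difference went from -0.66 to 2.22. CALR, the calcium-binding chaperone calreticulin, was at 894 and 902 CPM in the PBS libraries of MIA PaCa-2 and PANC-1, and at 1389 and 480 CPM under CBC. For this gene the CBC libraries lay on opposite sides of nearly equal controls. MANF, a secreted ER stress factor, did likewise, from 40.8 and 41.9 CPM to 97.5 and 27.9 CPM.

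Of 42 genes of the ATF4 list 10 were higher in MIA PaCa-2 and 9 in PANC-1 under CBC, against 5 and 9 of 40 under PBS, and 27 of the 42 were shifted toward MIA PaCa-2, 22 with an interval that left out 0 and 12 such the other way. Its CBC median of -0.03 turned positive when scaled to library totals. GDF15, a stress cytokine (chromosome 19, 18374731 to 18389176), had 0.225 and 89.8 CPM in MIA PaCa-2 and 17.9 and 198 CPM in PANC-1, so a gap of 5.87 narrowed to 1.14. NUPR1, a chromatin-linked stress protein, narrowed likewise, from 0.225 to 19.8 CPM against 12.3 to 120 CPM. CHAC1, a glutathione-degrading enzyme, had 6.07 and 62.9 CPM in MIA PaCa-2 and 11.5 and 72.3 CPM in PANC-1. These genes were low in the PBS library of MIA PaCa-2 and nearer to the PANC-1 level under CBC. Among genes of oxidative stress, HMOX1, the haem-degrading enzyme, had 10.6 and 403 CPM against 38.8 and 1022 CPM and stayed higher in PANC-1, at -1.87 under PBS and -1.34 under CBC. The quasi-likelihood test in edgeR gave it -1.54 ± 0.21 (SE) with an adjusted p of 0.000916. Of 33 NRF2 targets and antioxidant genes 5 were higher in MIA PaCa-2 and 8 in PANC-1 under CBC, against 9 and 9 under PBS. In this list 4 gaps narrowed and 1 widened. Over all genes 19.9% were higher in MIA PaCa-2 and 25.7% in PANC-1 under CBC, and 7.72% of gaps narrowed and 8.01% widened. The numbers of NRF2 and ATF4 genes higher in either line under CBC lay near those shares.

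The cystine transporter was divided by subunit. SLC7A11, the transporting subunit, had 20.1 and 69.4 CPM in MIA PaCa-2 and 69.1 and 425 CPM in PANC-1, and its line difference went from -1.78 to -2.61. SLC3A2, the heavy chain that carries it to the membrane, had 145 and 895 CPM in MIA PaCa-2 and 146 and 405 CPM in PANC-1, and went from -0.01 to 1.14. Under CBC each line was thus the higher one for 1 subunit. GPX4, the enzyme that removes lipid peroxides, was alike with either treatment, at 205 and 207 CPM against 182 and 178 CPM (0.22 under CBC, counting interval 0.17 to 0.28). SAT1, a polyamine acetyltransferase linked to lipid peroxidation, had 43.1 and 581 CPM in MIA PaCa-2 and 64.5 CPM in both PANC-1 libraries, which took its line difference from -0.58 to 3.17.

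DNA replication genes differed little between the PBS libraries and more between the CBC libraries. Under CBC 20 of 43 were higher in MIA PaCa-2 and 1 in PANC-1, against 8 and 2 under PBS, and the median went from 0.23 to 0.97. The shift was toward MIA PaCa-2 in 36 of the 43 genes, with a counting interval that left out 0 in 35. CDC6, a loader of the replicative helicase (chromosome 17, 40287879 to 40304657), had 140 and 120 CPM in the PBS libraries of MIA PaCa-2 and PANC-1, and 116 and 22.6 CPM under CBC. CDT1, its partner in loading, had 111 and 70.5 CPM in MIA PaCa-2 and 46.5 and 9.7 CPM in PANC-1, and its line difference went from 1.26 to 2.85. GINS4, a helicase subunit, had 99.5 and 59.2 CPM against 38.6 and 10.8 CPM. All 3 were lower under CBC than under PBS in either line, and the PANC-1 CBC library was the lowest of the 4. The CDT1 promoter stretch is given because it holds an E2F motif, TTTGGCGC or TTTCCCGC on either strand, shown in capitals (plus strand, chr16:88803619-88803788).
CDT1: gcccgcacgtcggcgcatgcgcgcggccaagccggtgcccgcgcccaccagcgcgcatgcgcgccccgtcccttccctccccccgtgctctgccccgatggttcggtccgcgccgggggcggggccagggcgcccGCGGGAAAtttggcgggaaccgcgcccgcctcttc
Such a motif was in 15 of 36 promoters of the list (41.7%) and in 2.31% of all promoters.

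Of 50 cell cycle genes 11 were higher in MIA PaCa-2 under CBC (22%, beside 19.9% of all genes) and 5 in PANC-1, against 3 and 6 of 49 under PBS. CDC25A, the phosphatase that opens S phase, had 44.2 and 23.7 CPM in MIA PaCa-2 and 33.5 and 5.12 CPM in PANC-1. CCNE1, cyclin E1 of the same step, went from 32 to 25.9 CPM and from 20.4 to 8.09 CPM, and its line difference from 0.65 to 1.67. E2F7, a repressor of E2F targets, lay the other way, with 18.1 and 10.3 CPM in MIA PaCa-2 and 74.9 and 127 CPM in PANC-1. CCNB1, cyclin B1 of mitosis, and CCND3, cyclin D3, were nearly level between the lines, at 0.36 and 0.00 under CBC. CDKN1A, the p21 inhibitor, was among the most narrowed genes, with 1.35 and 37.7 CPM in MIA PaCa-2 and 44.3 and 71.5 CPM in PANC-1.

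Of 44 apoptosis regulators 15 were higher in MIA PaCa-2 and 8 in PANC-1 under CBC, against 10 and 6 of 42 under PBS. The shares over all genes under CBC were 19.9% and 25.7%. The gap widened in 6 of these apoptosis genes and narrowed in 0, beside 8.01% and 7.72% of all genes. BBC3, the BH3-only killer PUMA, had 6.88 and 68.2 CPM in MIA PaCa-2 and 4 and 6.99 CPM in PANC-1. FAS, a death receptor, had 19.6 and 24.7 CPM against 12.1 and 6.62 CPM. Among proposed targets of cannabinoids, CNR2 had 1 to 6 counts in any library, while TRPV2, a heat- and cannabinoid-gated channel, had 0.18 and 0.768 CPM in MIA PaCa-2 and 42.6 and 52.2 CPM in PANC-1. TRPV1 was higher in MIA PaCa-2, with 12.9 and 9.58 CPM against 4.53 and 4.83 CPM.

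Other genes had larger gap changes. CD24, a small surface glycoprotein of epithelial and stem cells (chromosome 6, 106969831 to 106975627), had the most narrowed gap of the genes that averaged 10 CPM or more, with 1 and 65 counts in MIA PaCa-2 and 10360 and 4586 counts in PANC-1, and reads of its processed copies could have been counted elsewhere. EDN1, the vasoconstrictor endothelin-1, and INHBB, an activin subunit, narrowed from both sides, EDN1 from 0.27 and 49.6 CPM (MIA PaCa-2, PANC-1) to 1.09 and 6.7 CPM, and INHBB from 1.44 and 35.5 CPM to 9.66 and 9.55 CPM. ADAMTS4, an aggrecan-cutting protease, was the most widened of them, with 99 and 1741 counts in MIA PaCa-2 against 1 and 0 counts in PANC-1. KCNK5, a potassium channel, also widened, with 1393 and 4527 counts against 6 and 0. KLHDC7B, a kelch protein, started at 1 count in each PBS library and reached 1913 counts in MIA PaCa-2 and 144 in PANC-1 under CBC. F2RL2, a protease-activated receptor, widened toward PANC-1, with 29 and 5 counts in MIA PaCa-2 and 240 and 777 counts in PANC-1.

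The line differences were also unevenly spread over the chromosomes. Median differences under CBC were lowest, toward PANC-1, on chromosome 10 (-0.91), chromosome 15 (-0.83) and chromosome 11 (-0.67), and highest, toward MIA PaCa-2, on chromosome 14 (0.53) and chromosome 19 (0.43). They were much the same under PBS, at -0.86, -0.72, -0.68, 0.51 and 0.31. On chromosome 10, 263 of 572 tested genes were higher in PANC-1 and 55 in MIA PaCa-2 under CBC.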

How the data were processed

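For trimming the authors used cutadapt 2.7, STAR for alignment (GRCh38) and HTSeq for read numbers of Ensembl genes. The strand setting is not given in the sources used here, so genes and their antisense partners cannot be told apart. The deposited values used were raw counts of 4 libraries, for 58233 identifiers, of which 57392 matched a symbol and position in GENCODE release 44 on GRCh38. The authors also deposited a normalized signal, which equalled the counts on TMM-scaled library sizes to a relative difference of 6.84e-09 and was not otherwise used.

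Log2 differences were computed with a prior count of 2 and TMM factors of all 4 libraries (edgeR 4.0.16, R 4.3.3) and called past a threshold of 1. Count ratios have exact Clopper-Pearson 95% intervals, and 3 counts, 0.110 to 0.135 CPM, were taken as the limit of a count of 0. Both cover counting error only. The line was tested over both treatments by edgeR's quasi-likelihood test with Benjamini-Hochberg adjustment. Its p-values measure only the spread between these libraries, with the treatments in place of replicates, and the common coefficient of variation was 23.0%. Genes named by their CBC difference, such as ITGB5, were picked on libraries that the test also used. The scripts were tested on simulated data. Promoters were those of RefSeq (GRCh38.p14), the first listed per symbol.

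The gene lists and the genes named were chosen with earlier results of these data known. Named genes had a mean of at least 10 CPM over the libraries compared (the CBC libraries for line differences, all 4 for gaps) and were the 8 highest and 8 lowest differences under CBC, the 8 most narrowed and 8 most widened gaps, 6 crossed-over genes, per list the 3 largest differences and 2 largest gap changes, and 15 genes the study names at any level. Marker lists are given by all members. Counts of list members higher in MIA PaCa-2 and in PANC-1 stand beside 19.9% and 25.7% of all genes under CBC. Under PBS these shares were 18% and 24%. ITGB4, KRT18, AKR1C2 and, as an example from its list, CCL2 were named after their values were seen. Alternatives changed scaling, prior count, filter, gene type, tool (DESeq2 1.42.0) and the libraries used. SOD2, H2AC18, H3C2 and GSTT1 were not matched in the table. Some list members are counted in their lists but not reported here by name.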

Additional observations from a re-analysis of the deposited data

Results flagged for a closer look

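For 6 of the 43 crossed-over genes, those averaging 10 CPM or more with the largest differences, the line difference lay past 2-fold in opposite directions with and without CBC. With 1 library per line and treatment the change of direction was not tested. The quasi-likelihood test in edgeR, which asks for a line difference averaged over both treatments, gave adjusted p-values of 0.483 to 0.936 for these 6 genes. NDRG4, a cytoplasmic protein of neurons and heart, went from -2.30 to 1.53, with 33 and 2066 counts in MIA PaCa-2 and 173 and 787 counts in PANC-1. DPH6, an enzyme of diphthamide synthesis, was the only 1 of the 6 to turn toward PANC-1, from 2.12 to -1.52, with 1986 and 247 counts against 465 and 788 counts. ISG15 went from -1.31 to 2.76, with 263 and 4166 counts against 669 and 679 counts. ALOXE3, an epidermal lipoxygenase, went from -1.73 to 1.21. CD82, a tetraspanin, went from -1.15 to 1.14, and TNFAIP3 from -1.08 to 2.12. Of all 43 crossed-over genes 35 turned toward MIA PaCa-2 and 8 toward PANC-1, and 15 had a library at 3 counts or fewer.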

How the results depend on the processing

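Differing genes numbered 10910 under CBC and 10878 under PBS without a filter, 4215 and 3594 with 1 CPM in every library compared, and 3641 and 3156 with a mean of 10 CPM over the 4 libraries, a setting added after seeing the data. Narrowed and widened gaps numbered 2622 and 2694 without a filter, 358 and 488 with 1 CPM in every library, 680 and 701 with 5 CPM in at least 1 library and 379 and 410 with a mean of 10 CPM. Crossed-over genes numbered 232, 8, 12 and 7 under the same settings and 28 with a prior count of 5. The surplus of 44 widened over narrowed gaps turned to -67 with a prior count of 0.5. The SD of the line difference, lower under CBC by 0.0177, was higher by 0.000653 with a prior count of 5 and by 0.0523 with 1 CPM in every library. The median gap was larger under CBC in every setting run, by 0.0752 to 0.109. Scaling to library totals moved the median line difference over the 15590 genes under CBC from -0.09 to 0.04. Over both treatments the test called 7652 genes, 6714 by DESeq2 and 4251 without the treatment term. With 1 library left out, no treatment term was fitted, the lone library was assumed to vary like the others, and calls ranged from 1705 to 3838 (without the MIA PaCa-2 PBS library 3740, without MIA PaCa-2 CBC 3838, without PANC-1 PBS 1959 and without PANC-1 CBC 1705). No named gene with a line difference under CBC past 2-fold, or a gap change past 1, turned its sign. Differences nearer to 0 can do so under library totals. No paired analysis was possible because the labels carry no replicate numbers and each line and treatment has 1 library.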
